A study of Mus musculus with 30 samples.

Results

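The interleukin-1 family and the inflammasome were followed in the fracture callus through 10 genes, which were picked by name from the 43629 genes of the deposited count table. They were the ligands Il1a, Il1b, Il18 and Il33, the receptor antagonist Il1rn, the receptors Il1r1, Il1rap and Il1r2, the inflammasome sensor Nlrp3 and the protease Casp1. Each was matched to 1 Ensembl identifier, and all 10 passed the filter on low counts in every comparison. Callus RNA came from male C57BL/6J mice with an open fracture of the tibial shaft stabilized by an intramedullary nail, and each library was made from the callus of 1 mouse. Lean mice were given a control diet low in fat and sampled on d3, d5, d7 and d10 after fracture. Diet-induced obese (DIO) mice were kept on a high-fat diet and sampled on the same days and also on d14 and d21. There were 3 mice per diet and day and 30 libraries in all. No lean mouse later than d10 was analysed here, and DIO is a dietary model in wild-type males with no transgene.

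Interleukin-1 alpha and beta are cytokines of early inflammation. Interleukin-1 beta and interleukin-18 are made as inactive precursors, which caspase-1 cleaves once a sensor such as NLRP3 has assembled an inflammasome, while interleukin-1 alpha and interleukin-33 can be released by damaged cells. IL1R1 pairs with the accessory protein IL1RAP to signal through MYD88 and NF-kB, IL1RN occupies that receptor without signalling, and IL1R2 is a decoy that binds ligand and does not signal. Myeloid cells are a main source of these cytokines in injured tissue, and interleukin-1 acts on bone by promoting the formation of osteoclasts. RNA levels do not show cleavage or release of the proteins.

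The depth of the libraries lay between 13247122 and 26365620 counts, with a median of 16854427. Levels are given as CPM, the read count scaled to library depth with TMM factors. Levels of different genes are ranked per kilobase of exon, while the ratios within a library use CPM not scaled for length. The osteoblast markers of the callus summed to between 18660 and 78800 CPM, the chondrocyte markers to between 70.5 and 68810 CPM and the skeletal muscle markers to between 339.9 and 24020 CPM. Keratinocyte markers stayed between 1.24 and 4.53 CPM in sum, with Dsg1a at 0 in every library. A pair of libraries stood apart in the members: DIO d7 mouse 1, which had the highest value of Il1a, Il1b, Il33, Il1rn and Nlrp3 among the 30 libraries, and lean d10 mouse 1, which had the lowest value of Il1a, Il1b, Il1rn, Il1rap, Nlrp3 and Casp1. Some of the tests that include either are also given without it. Lean d10 mouse 1 had 68810 CPM of chondrocyte markers, against 14570 and 13740 in the other lean d10 mice. Its skeletal muscle markers summed to 1003 CPM, against 13640 and 9433. In bulk tissue, fewer cells of a type and less RNA per cell cannot be told apart.

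Per kilobase, Il1b had the highest median level over the 30 libraries with 17.5 CPM per kb, followed by Casp1 with 10.97, Il18 with 8.81 and Il1r1 with 6.96 CPM per kb. The median level of Il1r2 was 4.99, of Il1rn 4.70, of Il33 2.70 and of Nlrp3 1.35 CPM per kb. Il1rap (0.740) and Il1a (0.591 CPM per kb) were the lowest, and Il1a was the only member listed at 0 counts in a library, lean d10 mouse 1, where 3 counts were taken as the limit of detection. Across the 10 groups of mice, the lowest mean level was that of lean d10 for Il1b (8.91 ± 5.77 CPM, SD, n = 3), Il1rn (9.63 ± 2.17), Il1r1 (20.8 ± 8.83), Il1rap (4.12 ± 1.64), Il1r2 (4.001 ± 1.84) and Nlrp3 (1.72 ± 0.946 CPM). Lean d10 was also lowest for these 6 without its mouse 1. Il18 had its lowest mean in lean d10 too (7.335 CPM), but without that mouse DIO d10 was lower, at 7.525 against 7.838 CPM. The highest mean was that of DIO d5 for Il33 (28.2 ± 4.14) and Il1r1 (106.6 ± 11.3 CPM), of lean d3 for Il18 and Il1rn (46.01 ± 9.36), and of DIO d21 for Il1rap, Il1r2 and Casp1. The Il1r2 mean of DIO d21 (40.1 ± 44.4 CPM) rested on mouse 1 at 90.7 CPM, the other mice having 22.0 and 7.57 CPM. For Il1a, Il1b and Nlrp3 the highest mean, that of DIO d7, rested on mouse 1, without which the DIO d7 mean was 0.447 CPM for Il1a, 40.9 for Il1b and 4.88 for Nlrp3, against 1.78, 53.8 and 9.97 CPM in lean mice on d3. When the groups were put in order of their means, all 9 neighbouring pairs overlapped for Il1a, Il1b and Il18, and 8 of 9 for each of the other members. Neighbours in this order have the closest means by construction, so their overlap does not show whether the groups differ.

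In GRCm38 the other members lay at chr2:129299610-129309972 (Il1a, minus strand), chr9:50554827-50581840 (Il18), chr19:29925114-29960718 (Il33), chr1:40225080-40317257 (Il1r1), chr16:26581704-26730117 (Il1rap), chr1:40074079-40125231 (Il1r2) and chr9:5298517-5307265 (Casp1), all but Il1a on the plus strand. Genes on the opposite strand covered 11.2% of the exonic length of Il1a, 4.9% of that of Il1rap and 1.3% of that of Il1b, and whether counting used the strand is not given in the sources used here.

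The promoters of Il1b, Il1rn and Nlrp3 are shown because these 3 genes had the highest correlations among the members over the 30 libraries. Each sequence holds the 250 bases before a RefSeq transcript start (GRCm38.p6), written 5′ to 3′ on the strand of the gene, with capitals for a match to the NF-kB consensus of 10 bases, searched on both strands. Il1b lies at chr2:129364570-129371139 on the minus strand, Il1rn at chr2:24336853-24351494 and Nlrp3 at chr11:59541568-59566956, both on the plus strand (GRCm38, positions from GENCODE M21).
Il1b promoter, chr2:129371140-129371389, minus strand: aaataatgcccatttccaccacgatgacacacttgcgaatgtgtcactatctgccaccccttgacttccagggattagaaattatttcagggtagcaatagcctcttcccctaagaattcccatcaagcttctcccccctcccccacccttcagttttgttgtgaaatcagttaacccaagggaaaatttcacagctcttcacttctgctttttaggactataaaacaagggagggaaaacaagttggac
Il1rn promoter, chr2:24336610-24336859, plus strand: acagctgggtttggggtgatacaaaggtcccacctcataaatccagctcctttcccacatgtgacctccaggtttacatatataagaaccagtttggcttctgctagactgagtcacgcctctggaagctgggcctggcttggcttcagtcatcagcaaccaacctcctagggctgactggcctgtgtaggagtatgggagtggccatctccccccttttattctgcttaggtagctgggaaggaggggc
Nlrp3 promoter, chr11:59541319-59541568, plus strand: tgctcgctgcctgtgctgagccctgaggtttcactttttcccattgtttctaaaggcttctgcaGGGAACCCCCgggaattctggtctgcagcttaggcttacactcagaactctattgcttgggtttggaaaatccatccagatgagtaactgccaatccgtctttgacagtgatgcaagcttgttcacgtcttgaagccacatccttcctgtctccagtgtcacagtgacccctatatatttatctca
The Nlrp3 window held 1 match, whose first letter lay 186 bases before the start, and a second Nlrp3 start in the table had none. Of 15 windows of the 10 members, 2 held the consensus, the other being a second start of Il1r1, against 7.25% of the 32851 mouse promoter windows in the RefSeq table. A match is a description of the letters and not a binding site, and its absence says only that these letters are not in this window.

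**Figure D1:**
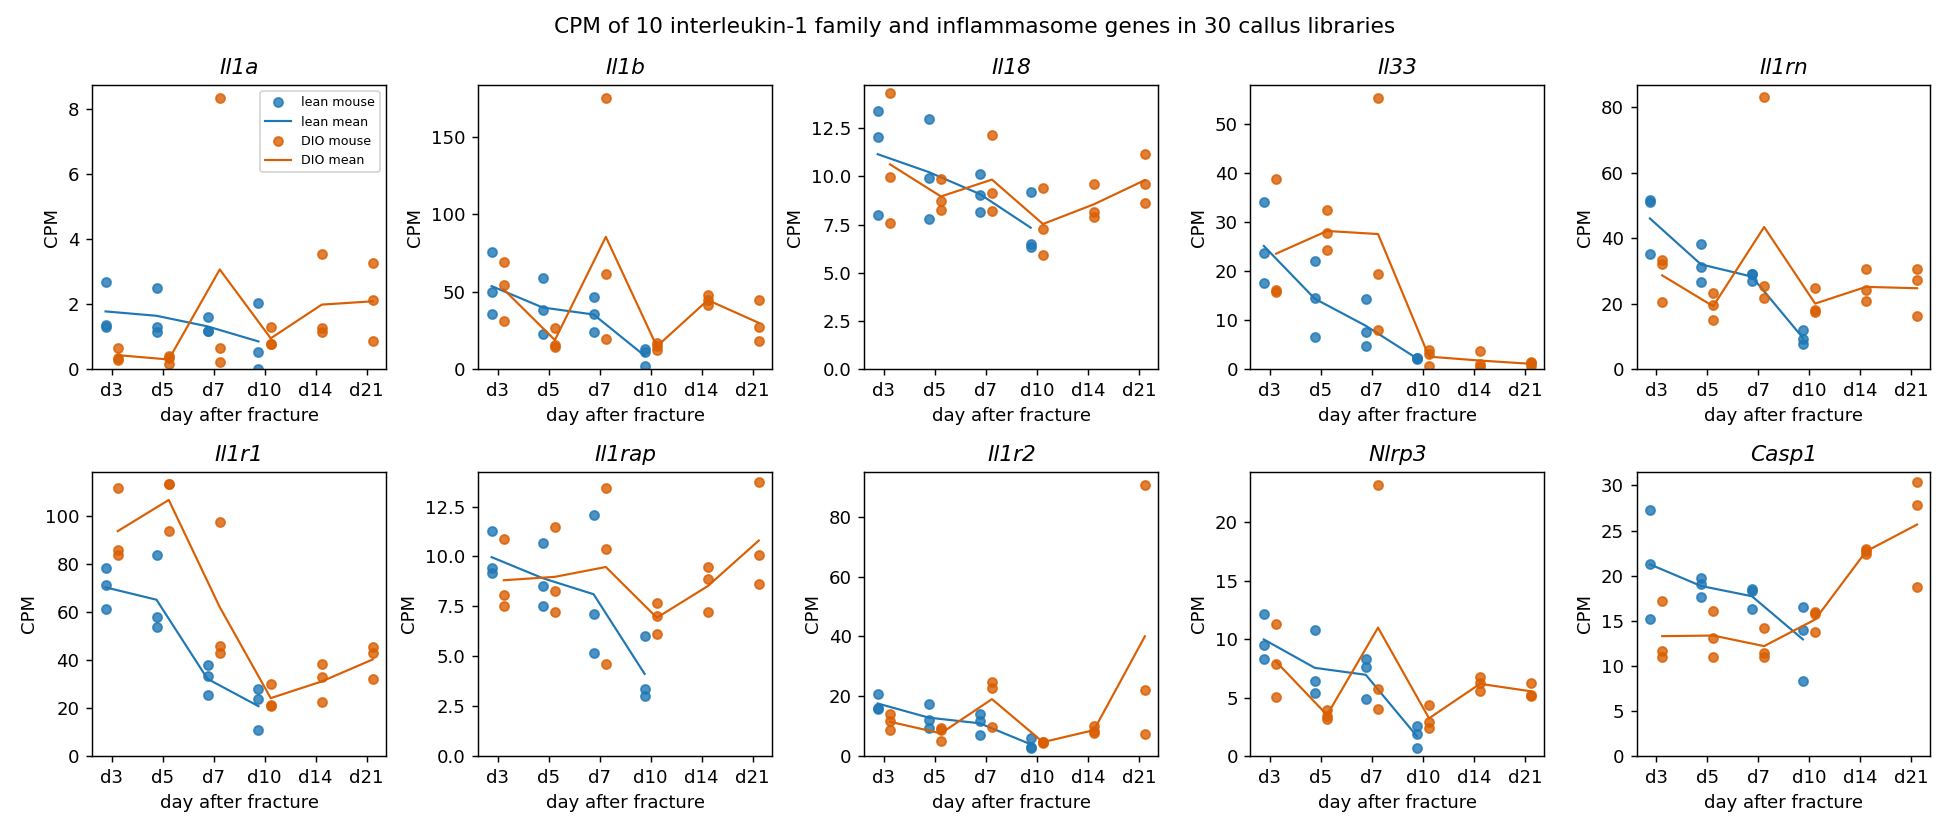
CPM of each member (vertical axis, linear, starting at 0) by day after fracture (horizontal axis), with 1 point per mouse and lines through the means of lean (blue) and DIO (orange) mice. Every lean mouse of d10 lay below every lean mouse of d3 for Il1b, Il33, Il1rn, Il1r1, Il1r2 and Nlrp3, and DIO d7 mouse 1 lies far above the others in several panels.

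In lean callus, most members fell between d3 and d10. Of the 10 members, 6 differed between the lean days (Il1b, Il33, Il1rn, Il1r1, Il1r2 and Nlrp3), where 19% of all genes tested did. On d10 against d3, 7 members were lower and 0 higher, adding Il1rap to these 6, where 14.1% of all genes were called lower. Il1a, Il18 and Casp1 did not pass. On d5 against d3, 0 of 10 members passed the edgeR test (0.449% of all genes did), with Il1rn alone at an unadjusted p under 0.05. DESeq2 also called 0. On d10 against d7, 2 members passed, both lower, Il1rn and Nlrp3 (1.65% of all genes were called lower). Every lean mouse of d7 already lay below every lean mouse of d3 for Il1r1, Il33, Il1rn, Il1r2 and, by a narrow gap, Nlrp3, and d7 was not tested against d3.

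Among the ligands, Il1b stood at 35.7, 75.8 and 49.8 CPM in the 3 lean mice of d3, at 58.7, 38.25 and 23 on d5, at 36.0, 46.5 and 23.9 on d7 and at 2.38, 11 and 13.3 on d10. The lean mice of d3, d5 and d7 overlapped, and every mouse of d10 lay below all of them. The log2 fold change of d10 against d3 was -2.56 ± 0.54 (SE, n = 3 per day, edgeR adjusted p = 0.005311). Without lean d10 mouse 1 it was -2.10 (adjusted p = 0.005894). The difference over all lean days had an adjusted p of 0.02984 and rose to at most 0.06599 when lean d3 mouse 2, d5 mouse 2 or d10 mouse 2 was left out.

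Il33, a nuclear alarmin, fell further. It measured 34.2, 23.7 and 17.7 CPM on d3, 22.1, 14.6 and 6.59 on d5, 14.4, 4.72 and 7.61 on d7, and 2.07, 2.42 and 2.34 on d10. The mice of d3 and d7 did not overlap, and the 3 mice of d10 had a mean of 2.28 CPM with an SD of 0.183. Its log2 fold change of d10 against d3 was -3.43 ± 0.51 (adjusted p = 0.0009295). Il18 changed little by comparison, with 8.01, 12.1 and 13.3 CPM on d3 and 6.33, 9.19 and 6.49 on d10, a log2 difference of -0.57 ± 0.26 that did not pass (adjusted p = 0.123). Il1a stayed between 0 and 2.69 CPM in lean callus, and its d10 value rested on 0 to 34 counts per library.

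Il1rn, the natural antagonist, fell with the ligand it opposes. Its values were 51.7, 51.1 and 35.2 CPM on d3, 31.1, 38.4 and 26.6 on d5, 29, 28.96 and 26.9 on d7, and 7.64, 11.9 and 9.31 on d10. The d10 mice lay below every mouse of the earlier days, and the log2 fold change against d3 was -2.22 ± 0.21 (adjusted p = 7.571e-05).

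The receptors fell over the same days. Il1r1, the signalling receptor, went from 71.4, 61.05 and 78.3 CPM on d3 to 23.8, 10.9 and 27.8 on d10, a log2 fold change of -1.72 ± 0.30 (adjusted p = 0.002125). The decoy Il1r2 went from 15.9, 20.8 and 16.1 CPM to 3.20, 6.10 and 2.70, a log2 fold change of -2.10 ± 0.35 (adjusted p = 0.00175). Neither gene overlapped between those days. Il1rap, the shared accessory chain, moved least, by -1.24 ± 0.33 on the log2 scale (adjusted p = 0.01646), and the call was lost without lean d3 mouse 2, lean d10 mouse 1 or lean d10 mouse 2 (adjusted p up to 0.05812).

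Nlrp3 stood at 9.49, 12.1 and 8.30 CPM on d3 and at 0.689, 2.55 and 1.92 on d10, with no overlap and a log2 fold change of -2.50 ± 0.42 (adjusted p = 0.001739). Its fall from d7 to d10 was called with -2.00 ± 0.42 on the log2 scale (adjusted p = 0.03654), a call lost on leaving out any of 7 libraries (adjusted p up to 0.1208, value -1.61 to -2.39): lean d3 mouse 1 or 3, d5 mouse 1, d7 mouse 1, 2 or 3, or d10 mouse 1. Casp1, the protease downstream of the sensor, measured 15.2, 27.3 and 21.3 CPM on d3 and 8.33, 16.6 and 13.9 on d10, which overlap, and its log2 difference of -0.68 ± 0.25 did not pass (adjusted p = 0.0598). Leukocyte markers moved over the same days. The 14 monocyte and macrophage markers summed to between 5222 and 6312 CPM in lean mice on d3 and between 2231 and 3320 on d10, and the 14 neutrophil markers to between 13010 and 28140 on d3 and between 4803 and 10420 on d10, all 14 of each list being detected. Chondrocyte markers rose from between 317.6 and 468.3 CPM on d3 to between 13740 and 68810 on d10. Osteoclast markers rose from between 596 and 648 to between 8318 and 11990 CPM. The part of these markers in the fall of the members was not tested.

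In DIO callus Il1b, Il33 and Il1r1 fell between d3 and d10, the mice of d7 spread widely, and Il1r1, Il1r2 and Casp1 were higher on d21 than on d10. Of the 10 members, 7 differed between the DIO days (Il1a, Il1b, Il33, Il1r1, Il1r2, Nlrp3 and Casp1), where 59.1% of all genes did. Leaving out DIO d3 mouse 1 or 3 or any DIO d5 mouse ended the call of Il1a (adjusted p up to 0.06844), and leaving out DIO d10 mouse 2 or 3 ended that of Nlrp3 (up to 0.05154). On d5 against d3, 0 members passed the edgeR test (1.68% of all genes did), with Il1b and Nlrp3 at an unadjusted p under 0.05 and 0 calls by DESeq2.

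On d10 against d3, 3 members were lower (Il1b, Il33 and Il1r1) and 0 higher, against 10.8% of all genes called lower. Il1b measured 54.5, 69.1 and 31.2 CPM on d3, 15.6, 14.5 and 26.8 on d5, 175, 61.9 and 19.8 on d7, and 14.96, 17.02 and 12.6 on d10. The mice of d5 and d10 lay below those of d3, while the mice of d7 spread from 19.8 to 175 CPM. The log2 fold change of Il1b on d10 against d3 was -1.80 ± 0.53 (adjusted p = 0.02282), a call lost without DIO d3 mouse 1 or 2 or any DIO d10 mouse (adjusted p up to 0.09178). Il33 had 38.9, 16.2 and 15.8 CPM on d3, 24.3, 27.8 and 32.6 on d5, 55.3, 19.6 and 8.002 on d7, and 0.691, 3.17 and 3.99 on d10. Every mouse of d10 lay below every mouse of the earlier days, with a log2 fold change of -3.16 ± 0.71 on d10 against d3 (adjusted p = 0.004592). Il1r1 fell by 1.95 ± 0.28 on the log2 scale (adjusted p = 0.0001534). Over these days the neutrophil markers rose from between 2731 and 4518 CPM to between 6729 and 10110. The monocyte and macrophage markers overlapped, at 2573 to 5530 CPM on d3 and 3109 to 3248 on d10. Chondrocyte markers rose from between 308.8 and 1000 CPM to between 2366 and 6801, and osteoclast markers from between 431.1 and 723.1 to between 9978 and 13150. The part of these markers in the fall of these members was not tested.

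Between d7 and d10, 5 members fell (Il1b, Il33, Il1r1, Il1r2 and Nlrp3), where 7.01% of all genes were called lower. Here DIO d7 mouse 1 weighed most, with 175 CPM of Il1b, 82.9 of Il1rn, 55.3 of Il33, 23.2 of Nlrp3 and 8.31 of Il1a. The other d7 mice had 61.9 and 19.8 CPM of Il1b and 4.04 and 5.72 CPM of Nlrp3. Without mouse 1, the log2 fold change of Nlrp3 shrank from -1.77 to -0.60 (adjusted p = 0.2951), and 3 members passed. The call of Nlrp3 was also lost without DIO d10 mouse 2 or 3, and that of Il1r2 without DIO d7 mouse 1 or 2 or any DIO d10 mouse (adjusted p up to 0.1001). The log2 fold changes of Il1b, Il33 and Il1r1 stayed past the threshold when any single mouse was left out. The smallest value was -1.46 for Il1b, without DIO d7 mouse 1, and -0.88 for Il1r1, without DIO d7 mouse 2. For Il33 the smallest value was -2.38. With every mouse kept the log2 fold changes of Il1b, Il33 and Il1r1 were -2.52 ± 0.54, -3.39 ± 0.71 and -1.36 ± 0.28.

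After d10 most members ran higher, though few were called. On d14 and on d21, 9 members had a positive log2 difference from d10 and 1, Il33, a negative one. The edgeR test called Il33 in neither comparison. On d14 against d10, a comparison added after the values were seen, 0 members passed the edgeR test (0.759% of all genes did), with Il1b and Casp1 at an unadjusted p under 0.05 and 0 calls by DESeq2. Il1b stood at 41.4, 44.7 and 48.2 CPM on d14, above every mouse of d10, with a log2 difference of 1.59 ± 0.53 (adjusted p = 0.1436). On d21 against d10, 3 members were higher (Il1r1, Il1r2 and Casp1), where 21.7% of all genes were called higher. Against d3, d21 had 2 members higher (Il1r2 and Casp1, with 23.5% of all genes higher) and 2 lower (Il33 and Il1r1, with 21.8% of all genes lower).

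Casp1 rose late. It had 13.7, 15.9 and 15.8 CPM on d10, 22.7, 22.4 and 22.99 on d14 and 30.4, 18.7 and 27.8 on d21. Every mouse of d14 and d21 lay above every DIO mouse of d3 to d10. The log2 fold change of d21 was 0.76 ± 0.21 against d10 (adjusted p = 0.008195, and 0.05849 without DIO d21 mouse 1) and 0.95 ± 0.21 against d3 (adjusted p = 0.001477).

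Il1r2 was uneven on d21, with 90.7, 22.0 and 7.57 CPM, against 4.83, 4.90 and 4.41 on d10 and 11.8, 14.1 and 8.60 on d3. The 3 mice of d21 lay above those of d10 and overlapped those of d3. Its log2 fold change of 3.08 ± 0.62 against d10 (adjusted p = 0.0008829) was 1.60 without DIO d21 mouse 1 and still passed. Against d3 it was 1.79 ± 0.58 (adjusted p = 0.0174), and 0.32 (adjusted p = 0.5739) without that mouse. The call against d3 was also lost without DIO d3 mouse 3. That mouse, DIO d21 mouse 1, had the highest sum of neutrophil markers of the 30 libraries, 31140 CPM against 14750 and 17300 in the other d21 mice.

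Il1r1 measured 45.6, 43.0 and 32.2 CPM on d21, above the d10 mice at 30.1, 21.5 and 20.9 and below the d3 mice at 112, 83.5 and 85.9. Its log2 fold change was 0.73 ± 0.28 against d10 (adjusted p = 0.03955, lost on leaving out any of 9 libraries, up to 0.1387) and -1.22 ± 0.27 against d3 (adjusted p = 0.001602). Il33 did not return, with 1.10, 3.78 and 0.581 CPM on d14 and 0.633, 1.29 and 1.55 on d21, and a log2 fold change of -4.33 ± 0.76 on d21 against d3 (adjusted p = 0.0002057). Il18, Il1rn and Il1rap passed the edgeR test in no comparison of DIO days. In DIO mice the neutrophil markers summed to between 6729 and 10110 CPM on d10 and between 14750 and 31140 on d21, the monocyte and macrophage markers to between 3109 and 3248 and between 3523 and 4980, and the B cell markers to between 318.8 and 414.6 and between 1262 and 1775. Their part in the late rise was not tested.

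**Figure D2:**
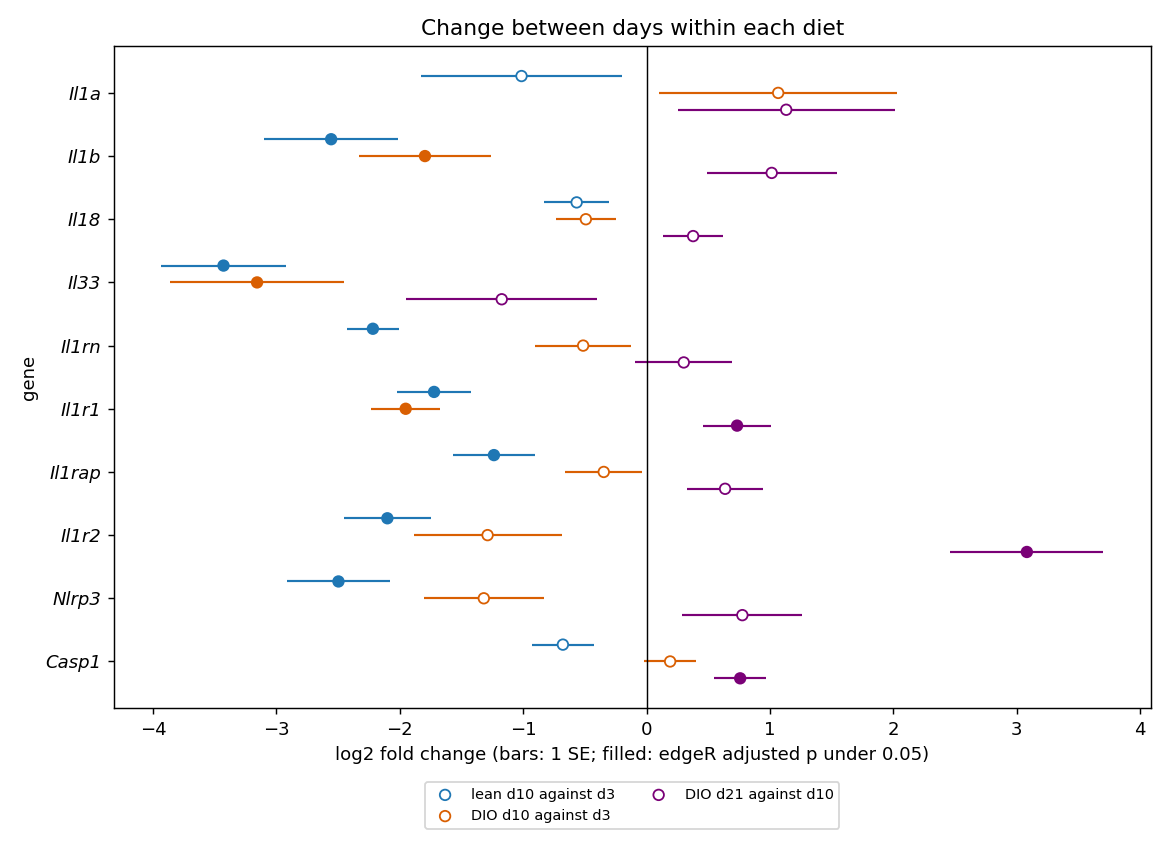
Log2 fold change of each member (horizontal axis, bars of 1 SE) between days within a diet, with filled points past an edgeR adjusted p of 0.05. Lean d10 against d3 and DIO d10 against d3 lie left of 0 for Il1b, Il33 and Il1r1, and the Il1r2 point of DIO d21 against d10 lies farthest right at 3.08.

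**Figure D3:**
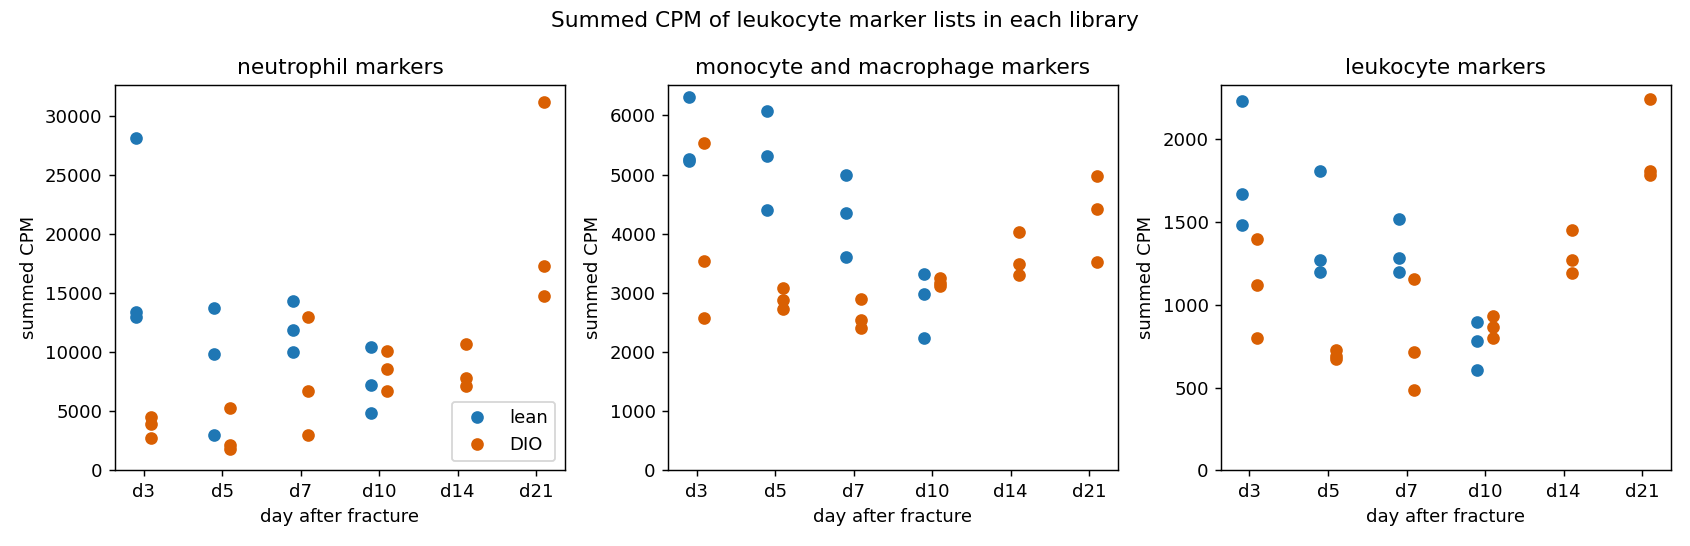
Summed CPM of the neutrophil, the monocyte and macrophage and the general leukocyte markers (vertical axes, starting at 0) by day after fracture, with 1 point per mouse. Neutrophil markers ran from 13010 to 28140 CPM in lean mice on d3 from 2731 to 4518 CPM in DIO mice on d3 and from 14750 to 31140 CPM in DIO mice on d21.

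The diets were compared on each shared day. The edgeR test called 0 of 10 members on any of them. In order of day it called 0%, 1.08%, 2.32% and 0% of all genes. On d3 an unadjusted p under 0.05 was reached by 5 members, of which DESeq2 called 1 (Il1a). On d5 it was reached by 8 members, with 5 called by DESeq2. The 2 later days had 3 members and 1 member at that level, and DESeq2 called 1 and 0. Over all genes, an unadjusted p under 0.05 was reached by 2374 on d3, by 2913 on d5, by 2614 on d7 and by 1082 on d10, and DESeq2 called 736, 1106, 934 and 56 genes. Over d3 to d10 with the day in the fit, edgeR called 0 members and 0% of all genes (2937 genes at an unadjusted p under 0.05, 424 called by DESeq2), with Il33, Il1r1 and Casp1 at an unadjusted p under 0.05 and Il1r1 called by DESeq2. The 3 libraries of each diet did not overlap for 4 members on d3 (20.8% of all genes), 6 on d5 (23.2%), 2 on d7 (22.1%) and 2 on d10 (14.2%).

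Il1r1, the signalling receptor, measured 112, 83.5 and 85.9 CPM in DIO mice on d3 against 71.4, 61.05 and 78.3 in lean mice, 113, 113 and 93.5 against 83.5, 57.8 and 53.9 on d5, and 45.9, 97.3 and 42.8 against 33.2, 25.6 and 37.8 on d7. Every DIO mouse lay above every lean mouse on these 3 days, and the mice of d10 overlapped. By day, the log2 difference on d3 was 0.43 ± 0.15, the one on d5 was 0.71 ± 0.18, the one on d7 was 0.95 ± 0.31 and the one on d10 was 0.23 ± 0.33. Over all 4 days it was 0.59 ± 0.15 (edgeR adjusted p = 0.1104, DESeq2 adjusted p = 0.02411). Leaving out lean d10 mouse 1 gave 0.63 with an edgeR adjusted p of 0.02305.

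Casp1 lay the other way early, with 16.03, 13.1 and 10.99 CPM in DIO mice on d5 against 19.8, 19.1 and 17.7 in lean mice, and 14.2, 11.4 and 10.96 against 16.3, 18.6 and 18.3 on d7. The diets did not overlap on either day. Over d3 to d10 its log2 difference was -0.36 ± 0.13 (adjusted p = 0.1802, and 0.02361 with a value of -0.44 without lean d10 mouse 1). Il1a was low in early DIO callus, at 0.360, 0.656 and 0.303 CPM on d3 and 0.402, 0.179 and 0.338 on d5, against 1.30, 2.69 and 1.35 and 1.29, 2.51 and 1.14 in lean callus. These DIO values rested on 3 to 16 counts per library, near the limit of detection, and the log2 differences were -1.97 ± 0.47 on d3 (edgeR adjusted p = 0.1335, DESeq2 0.02913) and -2.37 ± 0.51 on d5 (0.07281 and 0.01018). Neutrophil markers were lower in DIO mice on d3, with 2731 to 4518 CPM against 13010 to 28140, and monocyte and macrophage markers on d5, with 2730 to 3087 against 4407 to 6079. Their part in the differences was not tested.

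On d5 Nlrp3 had 3.21, 3.40 and 3.94 CPM in DIO mice against 6.41, 10.8 and 5.41 in lean mice, with no overlap and a log2 difference of -1.09 ± 0.30 (edgeR adjusted p = 0.1156). Il1b had 15.6, 14.5 and 26.8 CPM against 58.7, 38.25 and 23, which overlap, and its log2 difference was -1.07 ± 0.36 (adjusted p = 0.1699). Il33 lay the other way, with 24.3, 27.8 and 32.6 CPM in DIO mice against 22.1, 14.6 and 6.59, no overlap and a log2 difference of 0.98 ± 0.37 (adjusted p = 0.2219). None of these passed the edgeR test.

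Il1rn changed side. In DIO mice it had 33.3, 32.2 and 20.5 CPM on d3 and 24.7, 17.45 and 18.1 on d10, while in lean mice it had 51.7, 51.1 and 35.2 and 7.64, 11.9 and 9.31. DIO mice lay below lean mice on d3 and above them on d10, without overlap on either day. The log2 difference was -0.67 ± 0.22 on d3 (edgeR adjusted p = 0.2162) and 1.07 ± 0.25 on d10 (edgeR adjusted p = 0.6862). The test of whether the diet difference changed between d3 and d10 gave an adjusted p of 0.08385 with edgeR and 0.008678 with DESeq2. Of the 10 members 0 passed that edgeR test, where 1.65% of all genes did. At an unadjusted p under 0.05 stood Il1a, Il1b, Il1rn, Il1r2 and Nlrp3. Il1rap also did not overlap on d10, with 7.67, 6.13 and 7.00 CPM in DIO mice and 3.01, 3.35 and 6.01 in lean mice, a log2 difference of 0.76 ± 0.34 (adjusted p = 0.6862).

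**Figure D4:**
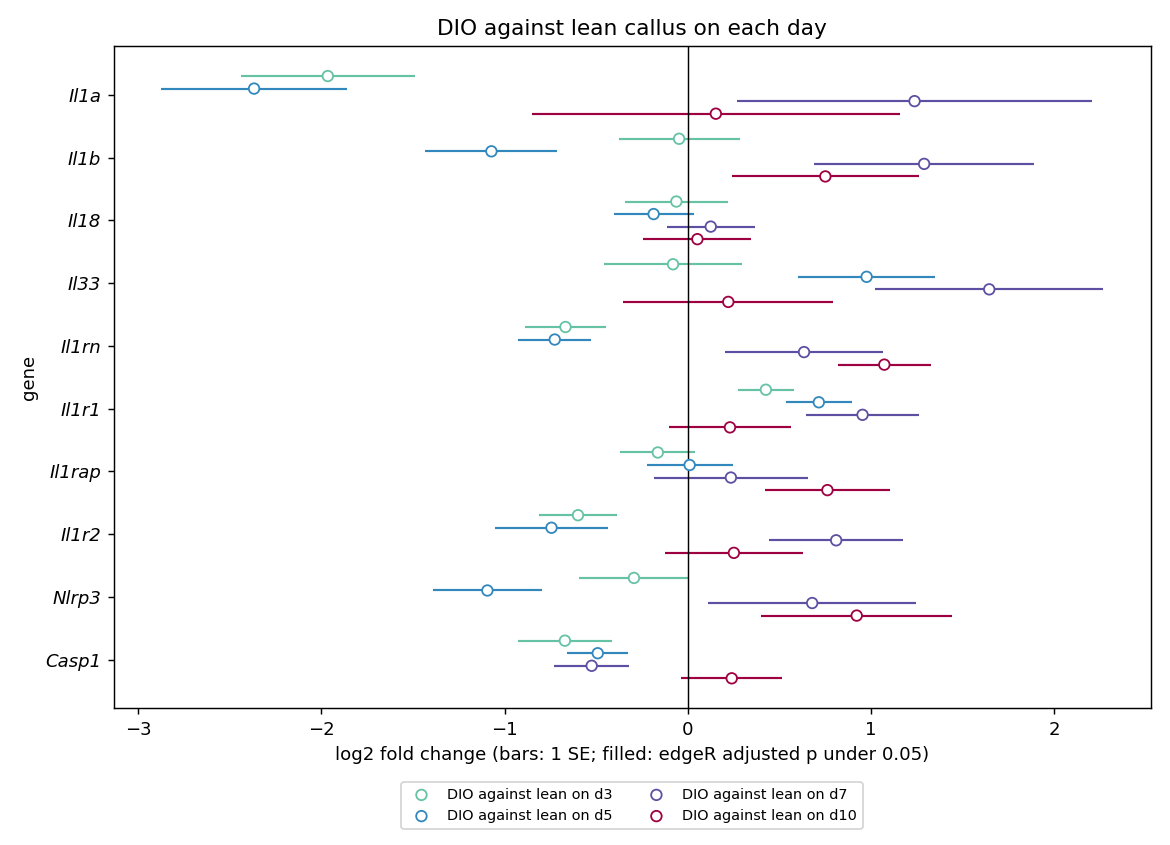
Log2 difference between DIO and lean callus for each member (horizontal axis, bars of 1 SE) on d3, d5, d7 and d10. Open points mark an edgeR adjusted p of 0.05 or more, which holds for every point, and Il1r1 lies right of 0 on all 4 days.

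Antagonists and decoys were set against their partners within each library, as a log2 ratio of CPM, which is described without a test. The CPM are not divided by exon length, so the ratios compare groups and do not show which gene of a pair was higher. Il1rn to Il1b ran from -0.57 to 0.54 in lean mice on d3 and from -0.52 to 1.68 on d10, and in DIO mice from -1.10 to -0.60 on d3 and from 0.04 to 0.72 on d10. The DIO mice of d3 and d10 did not overlap, and the lean mice did. Il1r2 to Il1r1 ran from -3.32 to -2.57 in DIO mice on d3 and from -4.51 to -3.44 on d5, below the lean mice at -2.28 to -1.55 and -2.79 to -1.74. On d7 the diets overlapped, and on d21 DIO mice spread from -2.09 to 0.99.

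Il18bp, which encodes a soluble protein that binds interleukin-18, was set against Il18. Their log2 ratio ran from 0.29 to 0.94 in DIO mice on d5 and from 1.00 to 1.39 in lean mice, with no overlap, and from -0.08 to 0.69 against 0.88 to 1.21 on d7. On d3 the diets overlapped, and on d10 they overlapped with the higher mean in DIO mice, 1.11 ± 0.34 (SD, n = 3) against 0.69 ± 0.10. For Il33 and its receptor gene Il1rl1, the log2 ratio of receptor to ligand ran from -0.27 to 0.75 in DIO mice on d3 and from 3.26 to 4.95 on d21. Il1rl1 itself had 32.3, 27.1 and 20.95 CPM on d3 and 19.6, 12.4 and 22.2 on d21, which overlap, while Il33 did not overlap between these days.

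**Figure D5:**
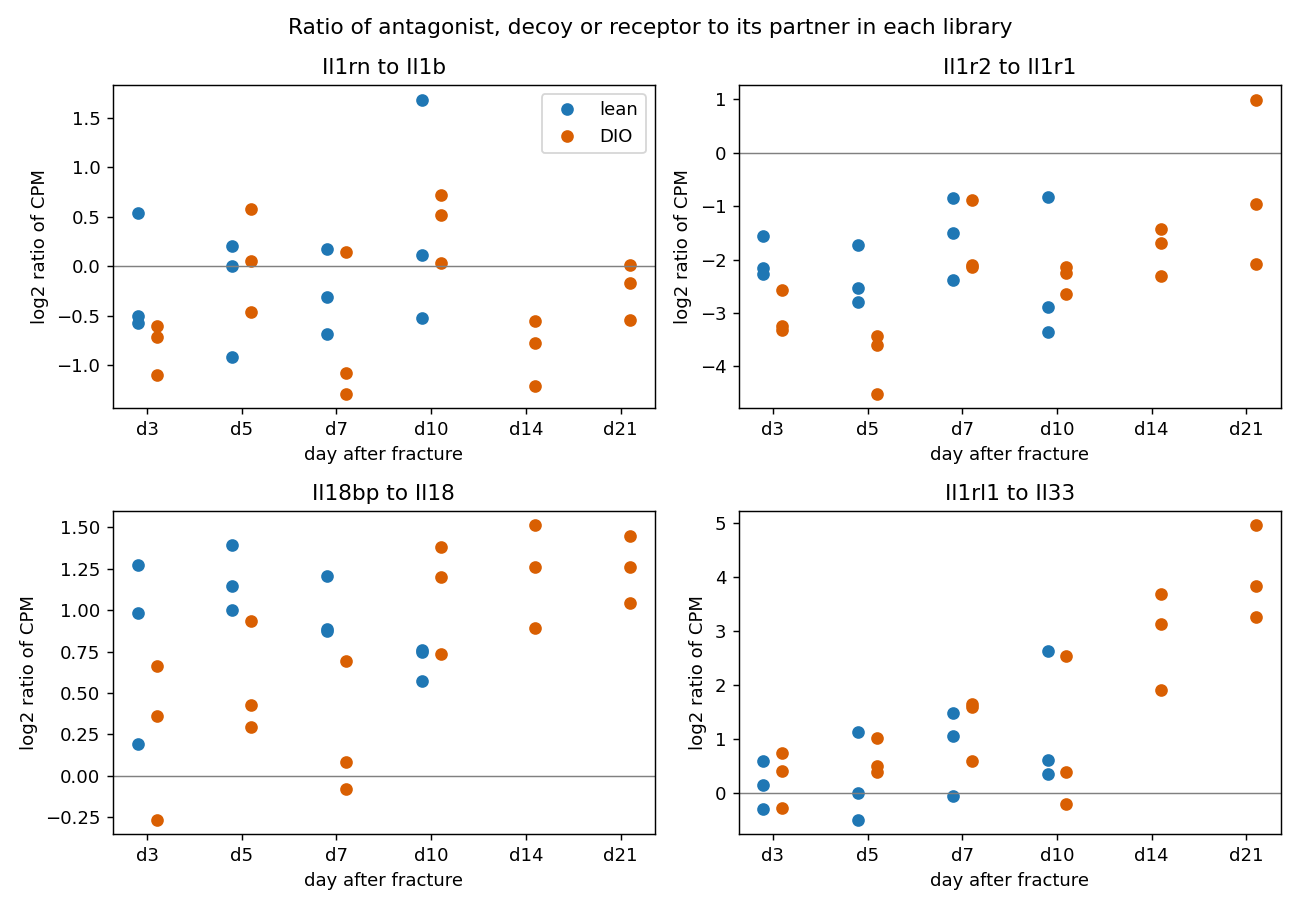
Log2 ratio of CPM (vertical axis) of Il1rn to Il1b, Il1r2 to Il1r1, Il18bp to Il18 and Il1rl1 to Il33 by day after fracture, with 1 point per library. Il1rl1 to Il33 in DIO mice was between 3.26 and 4.95 on d21, and Il1r2 to Il1r1 in DIO mice on d5 was between -4.51 and -3.44.

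The members did not all vary together. Over the 30 libraries, which share the pipeline and hold 10 groups of 3 mice, the Pearson correlation of log2 CPM was 0.918 between Il1rn and Nlrp3, 0.877 between Il1b and Nlrp3 and 0.852 between Il1b and Il1rn. Without DIO d7 mouse 1 and lean d10 mouse 1 these were 0.867, 0.752 and 0.747 over 28 libraries. Among 14808 genes with a mean of at least 1 CPM, Nlrp3 was the gene most like Il1rn and most like Il1b, and Acod1, an enzyme gene of activated macrophages, was next for Il1rn. Il33 had a correlation of 0.404 with Il1b and was most like 5730419F03Rik (0.911) and Bmpr1b (0.906). Il1r1 was most like Dram1 (0.911), Artn (0.903) and Abcb1b (0.878), and its correlation with Il33 was 0.718. Casp1 was most like Rgs2 (0.908), Prkcb (0.904) and Samd9l (0.903), and its correlation with Nlrp3 was 0.432. Il1r2 was most like Trem1 (0.867), a receptor of neutrophils and monocytes, Hdc (0.861) and Plscr1 (0.826). Il1a was most like Clec7a (0.840), Il36g (0.788, named Il1f9 in the table) and Hcar2 (0.784), Il18 was most like Snx5 (0.796), and Il1rap was most like Lysmd3 (0.885).

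The other genes of the pathway were read from lists chosen with earlier results of these data known. Of 19 genes known to respond to interleukin-1, 17 were tested, and on d10 against d3 in lean mice 11 were lower and 1 higher (14.1% of all genes were lower), with a median log2 fold change of -1.09, against 0.023 over all 16471 genes tested. Cxcl5, which encodes a chemokine for neutrophils, fell from between 19.6 and 33.6 CPM to between 0.188 and 0.872, by 5.74 ± 0.48 on the log2 scale (adjusted p = 3.2e-05). Saa3, an acute phase gene, fell by 4.37 ± 0.56 (adjusted p = 0.0004176). The 1 gene that rose was Mmp13, a collagenase gene also made by hypertrophic chondrocytes and osteoblasts, by 2.88 ± 0.37 (adjusted p = 0.0004176). In DIO mice 10 of the 17 were lower and 1 higher on d10 against d3, where 10.8% of all genes were lower, and Ptgs2, the gene of cyclooxygenase-2, fell by 3.90 ± 0.50 on d21 against d3 (adjusted p = 1.299e-05).

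Of 20 other inflammasome genes, 18 were tested in the lean fit, and 12 were lower and 0 higher on d10 against d3, where 14.1% of all genes were lower (median log2 fold change -1.31). Mefv, the gene of the pyrin sensor, fell by 2.20 ± 0.21 on the log2 scale (adjusted p = 7.761e-05). In DIO mice 11 of 18 were higher and 0 lower on d21 against d10, where 21.7% of all genes were higher (median 0.89, against -0.045 over all genes tested). Aim2, a sensor of cytosolic DNA, went from between 10.46 and 13.04 CPM on d10 to between 39.2 and 56.4 on d21, a log2 fold change of 2.06 ± 0.24 (adjusted p = 9.002e-06). Of 8 other receptor and binding protein genes, 6 were tested, and 5 were lower on d10 against d3 in lean mice and 5 higher on d21 against d10 in DIO mice. Il18rap, an interleukin-18 receptor chain, fell by 2.14 ± 0.52 in the first (adjusted p = 0.01032) and rose by 1.94 ± 0.30 in the second (adjusted p = 9.909e-05). Of 18 signalling genes, 6 were lower and 1 higher in lean mice on d10 against d3, where Irak3, a negative regulator, fell by 1.45 ± 0.20 (adjusted p = 0.000609). On d21 against d10 in DIO mice, 10 were higher and 0 lower. The shares of all genes were again 14.1% lower and 21.7% higher in these comparisons.

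Between the diets over d3 to d10, 0 of the 61 genes tested from these lists passed the edgeR test, with 20 at an unadjusted p under 0.05. The smallest adjusted p belonged to Saa3, with a log2 difference of 1.203 ± 0.28 (adjusted p = 0.0966), and to Mmp3, a stromelysin gene, with 1.13 ± 0.28 (adjusted p = 0.09673). By day, edgeR called 0 of 59 on d3, 2 of 59 on d5, 4 of 60 on d7 and 0 of 57 on d10. Of all genes it called 0%, 1.08%, 2.32% and 0%. In DIO mice Il1rl1 was higher and Naip6 lower on d5. On d7 Ptgs2, Cxcl5 and Ptges were higher and P2rx7 lower. Calls of the list genes were not followed when a mouse was left out, so these d7 calls were not checked without DIO d7 mouse 1. A change of the diet difference was called for 1 of 61, P2rx7, and for 1.65% of all genes. Of the 5 other ligand genes, Il1f6, Il1f8 and Il1f5 were at 0 counts in all 30 libraries, and Il36g was the 1 tested and was lower on d10 against d3 in lean mice by a log2 fold change of -1.73 ± 0.50 (adjusted p = 0.02286).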

How the data were processed

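Callus RNA of 30 mice was sequenced as paired-end libraries of polyA RNA with strand marking. Per the submitters' processing notes and the study's methods, the authors used bcl2fastq, HISAT2 2.1.0 on GRCm38 and HTSeq, and deposited raw read counts per Ensembl gene. The HTSeq strand setting and annotation release are not given in the sources used here. Groups came from the labels.

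Counts were TMM scaled, filtered with filterByExpr and tested with edgeR 4.0.16 (quasi-likelihood F-test, R 4.3.3, limma 3.58.1, Benjamini-Hochberg adjustment over all genes tested, threshold 0.05). Days were compared in 1 fit of 12 lean and 1 of 18 DIO libraries, diets in fits of 6 libraries per day and 24 over d3 to d10. The fits were tested on simulated data. Symbols and lengths came from GENCODE M21, which held 42548 of 43629 identifiers. Correlations used log2 CPM with a prior count of 2. Ratios were formed per library. Tables and plots used Python 3.11.15 with pandas 2.3.3, numpy 2.4.6 and matplotlib 3.10.9. Alternatives were DESeq2 1.42.0, RLE factors, no filter but 1 count, the replicate number as a block, each mouse left out and all 30 libraries in 1 fit. Mice of a group are separate animals, and no pair of libraries of 1 group agreed within sampling noise (30 pairs).

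All members were named in every comparison, together with at most 3 genes per pathway list by adjusted p in each of 3 tests and up to 3 genes most like each member. The members and lists were chosen with earlier results of these data known.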

Additional observations from a re-analysis of the deposited data

How the results depend on the processing

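Of the 170 tests of a member in a comparison, 37 passed, of which 24 have a log2 fold change, and 0 of these 24 changed sign under any alternative that was run. Only the members were followed gene by gene under the alternatives, not the genes of the pathway lists. Precision was limited by 3 mice per group and, for Il1a, by counts of 0 to 132 per library. The number of members past the threshold moved by over 1.5 times as follows, and in the other comparisons by at most 1 member with all mice kept. For lean d10 against d7 it was 2, and 5 with DESeq2, 5 with no filter but 1 count and 5 with the replicate block, while the count over all genes went from 450 to 1761, 607 and 1479. For DIO d14 against d10 it went from 0 to 1 member with no filter. Between the diets it went from 0 to 1 on d3 with DESeq2 and to 1 with the replicate block, to 5 on d5 with DESeq2 and 2 with no filter, and to 1 on d7 with DESeq2. Over d3 to d10 it went from 0 to 1 with DESeq2 and to 3 members without both DIO d7 mouse 1 and lean d10 mouse 1, an alternative added after the values were seen (763 of all genes with both left out, 424 with DESeq2; Il1a -1.64, adjusted p = 0.02375; Il1r1 0.64, adjusted p = 0.03177; Casp1 -0.48, adjusted p = 0.0303). For the change of the diet difference between d3 and d10 it went from 0 to 1 with DESeq2 and 1 with no filter, Il1rn in both. The cause was not tested. Where no count over all genes is given beside them, these member counts are not read as a trait of the members.

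With 1 mouse left out, the number of members past the threshold ran from 1 to 4 for lean d10 against d7 (4 without lean d10 mouse 3), 0 to 1 for DIO d5 against d3 (1 without DIO d7 mouse 1), 3 to 6 for DIO d10 against d7 (3 without DIO d7 mouse 1, d10 mouse 2 or d10 mouse 3), 1 to 5 for DIO d21 against d10 (1 without DIO d21 mouse 1, 5 without DIO d7 mouse 1 or 3), 0 to 3 for the diets on d5 (3 without lean d5 mouse 3, 1 without lean d5 mouse 1), 0 to 2 on d7 (without DIO d7 mouse 3), 0 to 2 over d3 to d10 (without lean d10 mouse 1) and 0 to 1 for the change of the diet difference (without DIO d7 mouse 1 or 3). The count over all genes can move with 1 mouse too. Over the lean days it went from 3132 to 1787 without lean d3 mouse 1. The counts over all genes under the settings of this paragraph are not given beside the member counts. These member counts are therefore not read as a trait of the members.

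Samples with the same replicate number did not deviate together in every pair of any comparison, so the numbers were not taken to pair mice. In 1 comparison, DIO d10 and d14, every sample correlated best with its own number. The replicate block reversed 3 differences that had not passed: Il1a between the diets on d7 (-0.0191), Il33 on d10 (-0.0273) and Nlrp3 over d3 to d10 (-0.0284), and ended the call of Il1a over the DIO days. Without both libraries named above, the differences over d3 to d10 of Il1b (-0.2077), Il1rn (-0.2874) and Nlrp3 (-0.4171) reversed, and that of Il1r2 was -0.2345. The correlation of Il1a with Il18 went from 0.074 to -0.052.

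Leaving out 1 mouse reversed only differences that had not passed, with these ranges of the log2 value. For lean d5 against d3 they were -0.5087 to 0.3148 (Il1a), -0.3289 to 0.0643 (Casp1), -0.3219 to 0.0633 (Il18) and -0.3187 to 0.0225 (Il1r1). For DIO d5 against d3 they were -0.4296 to 0.0264 (Il18), -0.1865 to 0.2047 (Il1rap) and -0.1425 to 0.2397 (Casp1). Il1a ran from -2.2328 to 1.066 for DIO d10 against d7, and for DIO d21 against d3 Il18 ran from -0.3249 to 0.1303 and Il1rn from -0.4243 to 0.0007. Between the diets on d3 they were -0.6375 to 0.1958 (Il33), -0.3183 to 0.2834 (Il1b) and -0.3269 to 0.1342 (Il18), and on d5 -0.3508 to 0.0186 (Il18) and -0.2031 to 0.1613 (Il1rap). On d7 they were -0.0895 to 0.6513 (Il1rap), -1.513 to 1.7883 (Il1a), -0.2372 to 0.9632 (Il1rn), -0.4848 to 1.0828 (Nlrp3) and -0.0437 to 0.2505 (Il18). On d10 they were -0.4424 to 1.8293 (Il1a), -0.1427 to 0.2486 (Il18), -0.011 to 0.4586 (Casp1), -0.0781 to 0.4905 (Il1r1) and -0.2216 to 0.6682 (Il33). Over d3 to d10 they were -0.0725 to 0.0376 (Il18), -0.184 to 0.0084 (Il1r2), -0.2658 to 0.1502 (Nlrp3), -0.1635 to 0.149 (Il1rn) and -0.0576 to 0.3636 (Il1b). The log2 ratio of d10 minus d3 ran from -0.022 to 1.079 for Il1rn to Il1b, -1.13 to 0.134 for Il1r2 to Il1r1 and -0.435 to 0.105 for Il18bp to Il18 in lean mice, and from -0.191 to 1.169 for Il1rl1 to Il33 in DIO mice.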
